A study of Homo sapiens with 42 samples.

Results

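The 10 genes described here build, coat, break down or supply lipid droplets, and they were followed in 786-O cells, a human clear cell renal cell carcinoma (ccRCC) line, carrying different forms of the hypoxia-inducible factors (HIFs). They were taken by gene symbol from the count tables: PLIN2, PLIN3, PLIN4, HILPDA, G0S2, PNPLA2, LPIN1, DGAT2, CPT1A and CD36. They make up 10 of the 60609 genes listed. All 10 entered the tests in each of the 2 batches of libraries, among 23410 genes in batch 1 and 28724 genes in batch 2. CD36 entered in batch 1 through a few reads, most of them in the HIF-2α and HIF-2αDM lines.

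A lipid droplet is a core of triglycerides and cholesteryl esters under a single phospholipid layer and a coat of proteins, chiefly the perilipins. Fatty acids enter the cell partly through CD36, are built into triglyceride by enzymes that include lipin 1 (LPIN1) and DGAT2, and are released again by adipose triglyceride lipase (PNPLA2), which HILPDA and G0S2 inhibit. CPT1A carries them into mitochondria for oxidation. Stored lipid gives ccRCC its clear cytoplasm, and loss of VHL in this cancer leaves the HIF-α subunits stable in normal oxygen. HIF-1α or HIF-2α pairs with HIF-1β and binds DNA at hypoxia response elements, whose core reads ACGTG or GCGTG.

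The libraries held poly(A) RNA from 14 groups of 3 samples, described by the study as biological replicates. 786-O cells lack working VHL and HIF-1α, so all groups share that background, and WT here means cells without a further change. Batch 1 held WT cells, 2 knock-in lines in which every copy of the gene carries a V5 and Halo tag, and 6 lines that stably express a Halo-tagged protein from the weak L30 promoter on top of the endogenous HIF-2α. The knock-in lines, HIF-1β KIN (A21) and HIF-2α KIN (A31), are 1 clone each. The L30 proteins were HIF-1α, its DNA-binding mutant HIF-1α R30E, its dimerization mutant HIF-1αDM, HIF-2α, its DNA-binding mutant HIF-2α R27E and its dimerization mutant HIF-2αDM. Batch 2 held WT cells and L30 lines with HIF-1α, HIF-2α and the chimeras HIF-2α/1α and HIF-1α/2α. According to the methods of the study, its stable lines were made by transposon transfection, selected with puromycin and kept in selection medium. No L30 line without a HIF protein was among the groups. In a comparison with WT, the added protein and the making of the line therefore cannot be told apart. The first name in a chimera is the source of the structured N-terminal part, with the DNA-binding and dimerization domains, and the second is the source of the long C-terminal intrinsically disordered region (IDR). RNA in batch 1 was prepared with columns and a TruSeq-based protocol and RNA in batch 2 with TRIzol and another kit, so batch and chemistry cannot be told apart. P-values measure the spread between the 3 samples of a group, and in bulk RNA fewer cells with a transcript and less of it per cell cannot be told apart.

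Libraries held 42377599 to 101186554 counted reads in batch 1 and 76366799 to 109642159 in batch 2. In batch 1 the 9 libraries numbered 3 were the deepest of their lines (72801922 to 101186554 reads) and stood apart from the other 18 on the second principal component, which held 17.1% of the variance. Their scores were 18.33 to 26.8 against -17.6 to -5.04. In all 9 lines of batch 1 library 3 had the lowest PLIN2 and the lowest HILPDA and the highest PNPLA2, a behaviour shared by 4.88% of all genes (lowest in all 9 lines) and 4.84% (highest in all 9). Results were therefore also computed without these libraries, and the values are given where a call changed. The targeted genes followed their labels: HIF1A rose in each line given HIF-1α, a mutant of it or a chimera, to 3038 normalised counts in HIF-1α of batch 1 against 242 in WT, and EPAS1, the gene of HIF-2α, rose in each line given HIF-2α, a mutant of it or HIF-1α/2α, to 44694 in HIF-2α against 14498. In HIF-2α/1α EPAS1 was under the 2-fold limit, at 20745 against 12621 in WT of batch 2. The tags of the knock-in clones cannot be checked from gene counts. EPAS1 also fell in HIF-2α KIN, to 6177 (log2 change -1.23 ± 0.20, edgeR adjusted p = 0.000101). HIF1A rose in the HIF-2α line as well, to 936 in batch 2 against 293 (log2 change 1.67 ± 0.08, edgeR adjusted p = 4.25e-21). Of 8 ccRCC markers, 8 exceeded 1 CPM (reads of a gene scaled to a fixed library total) in some library of each batch. In every library 5 of 8 did so in batch 1 and 6 of 8 in batch 2. CA9 was above 3 reads in 7 of 27 libraries of batch 1 and 12 of 15 of batch 2, and NDUFA4L2 reached at most 2.71 CPM. Of 6 adipocyte markers 1 exceeded 1 CPM in some library (LIPE) while ADIPOQ was at 0 in every library. Of 4 macrophage markers 1 did (CSF1R), and of 4 endothelial markers 0 did.

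Genes are called changed here at an adjusted p of at most 0.01 (edgeR quasi-likelihood test, two-sided, Benjamini-Hochberg adjustment over all genes tested in the comparison) together with a change of at least 2-fold. The main calls among the 10 genes were as follows. LPIN1 was lower than in WT in all 4 L30 lines of batch 2 and in the HIF-2α line of batch 1. DGAT2 fell with HIF-2α in both batches, with HIF-1α/2α and in both knock-in clones, and was not called in HIF-2α R27E or HIF-2αDM. PLIN2 and HILPDA were called higher in HIF-2α and HIF-1α/2α of batch 2 and in no line of batch 1. CPT1A was called lower only in the knock-in clones among the comparisons with WT that were run. The comparisons of a batch with WT share the same 3 WT libraries, so they are not independent of each other.

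**Figure D1:**
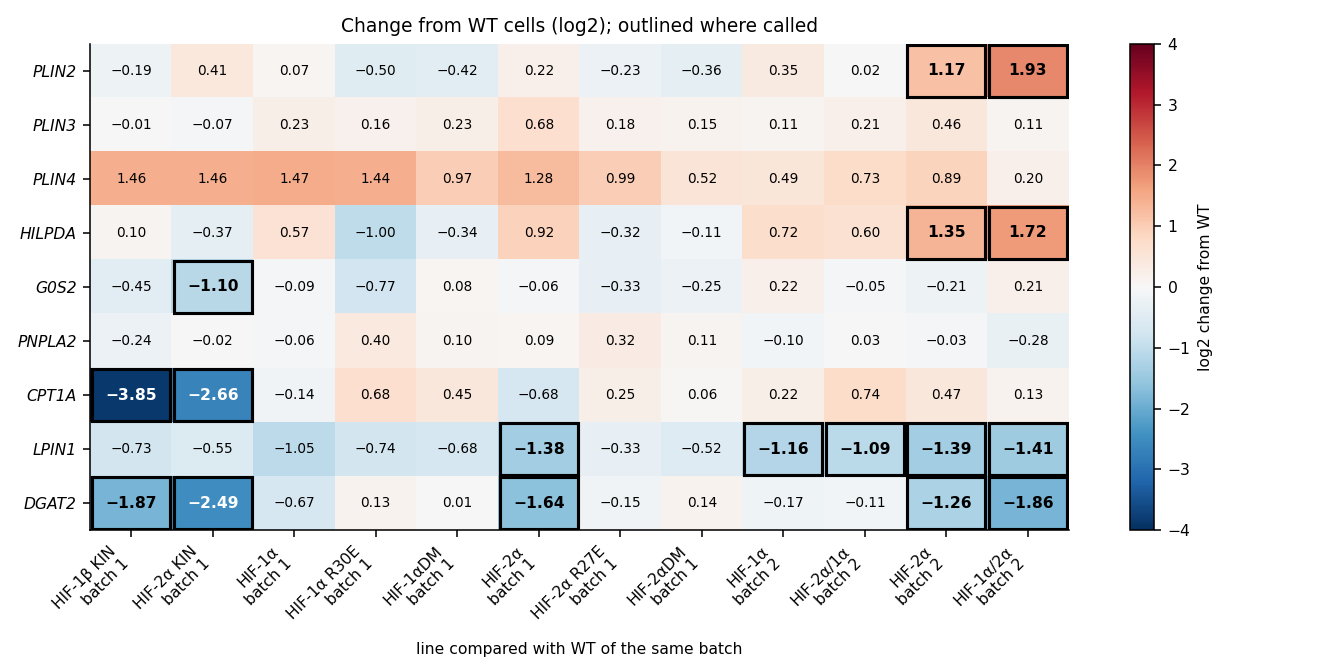
Log2 change of 9 genes (rows) in each line against WT cells of the same batch (columns), on a colour scale from -4 to 4; outlined cells passed the adjusted p and the 2-fold limit. CD36 is left out because its WT libraries hold 3 reads or fewer. The LPIN1 and DGAT2 rows hold the most outlined cells, 5 each. CPT1A is outlined only in the knock-in clones, G0S2 only in HIF-2α KIN, and PLIN2 and HILPDA only in HIF-2α and HIF-1α/2α of batch 2.

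Levels of different genes were compared per kilobase of exon in WT cells of batch 2. PLIN3 stood highest with 101 ± 1.34 CPM per kb (SD, n = 3), followed by G0S2 with 65.9 ± 2.30 and PNPLA2 with 22.6 ± 1.14. PLIN2 followed with 16.8 ± 1.04 CPM per kb, LPIN1 with 11.4 ± 0.763 and HILPDA with 8.80 ± 0.287. DGAT2 had 1.97 ± 0.115 CPM per kb and CPT1A 1.71 ± 0.109. PLIN4 was near the bottom with 0.0271 ± 0.00527 CPM per kb and CD36 lowest with 0.00100 ± 0.000989. No neighbouring genes in this order overlapped in their libraries. In batch 1 the order was the same except that HILPDA and LPIN1 changed places, and there the libraries of PLIN2, HILPDA and LPIN1 overlapped.

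PLIN2, the perilipin that coats the droplets of most cells outside fat tissue, lies on chromosome 9 (hg38, chr9:19108375-19149290, minus strand). The 250 bases before a RefSeq start site of the gene (GRCh38.p14, chr9:19127493-19127742, minus strand) are shown because PLIN2 was the 1 droplet coat gene called higher and its window holds several core matches. Capitals mark ACGTG or GCGTG on either strand (CACGT and CACGC where the core lies on the other strand).

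PLIN2: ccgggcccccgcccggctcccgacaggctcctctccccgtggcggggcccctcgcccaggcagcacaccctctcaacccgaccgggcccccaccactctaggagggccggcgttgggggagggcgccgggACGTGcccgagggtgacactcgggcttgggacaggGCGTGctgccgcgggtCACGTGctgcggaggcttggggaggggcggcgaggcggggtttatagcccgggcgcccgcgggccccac

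The window holds 4 matches, at 120, 85, 69 and 68 bases before the start site. The last pair overlaps in CACGTG, which is also the E-box of other helix-loop-helix factors. Of all 35116 RefSeq windows of this length, 43.2% hold at least 1 match and 6.34% hold CACGTG. Windows were found for 8 of the 10 genes, 15 windows in all, and 5 of these windows held at least 1 match. The G0S2 window held 4 matches, as many as that of PLIN2, and the PLIN3 window held 3. For LPIN1 and CD36, 1 window each held 1 match. Neither G0S2 nor PLIN3 was called higher than WT in any line. HILPDA and DGAT2 had no entry. A match is a description of the letters and not of binding.

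In batch 2, PLIN2 read 7322, 7227 and 8082 normalised counts in the 3 WT libraries and 17319, 16209.9 and 17456 in HIF-2α. It read 28043, 27932 and 30457 in HIF-1α/2α. Every library of these lines lay above every WT library, and HIF-1α/2α lay above HIF-2α. PLIN2 was thus 2.25-fold higher than WT in HIF-2α (log2 change 1.17 ± 0.06, edgeR adjusted p = 6.55e-22) and 3.82-fold higher in HIF-1α/2α (log2 change 1.93 ± 0.06, edgeR adjusted p = 8.59e-30). With the HIF-1α IDR the values were 9303, 9389 and 10055 in HIF-1α and 8003, 7189 and 7772 in HIF-2α/1α. The HIF-1α libraries all lay above WT but by less than 2-fold (log2 change 0.35 ± 0.06, edgeR adjusted p = 3.26e-06), and those of HIF-2α/1α overlapped with WT (log2 change 0.02 ± 0.06, edgeR adjusted p = 0.855).

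In batch 1 PLIN2 was called in 0 of 8 lines by edgeR and 0 by DESeq2, with 0 at an unadjusted p under 0.05, and the log2 changes ran from -0.50 to 0.41. WT libraries read 5177, 3977 and 2831 and those of HIF-2α 6317, 4501 and 3114. The groups overlapped, and in each line the lowest value was that of library 3. The 95% interval of the log2 change in HIF-2α was -0.53 to 0.96 in batch 1 (log2 change 0.22 ± 0.36, edgeR adjusted p = 0.76) and 1.06 to 1.29 in batch 2, so the batch 1 interval stopped short of the batch 2 value of 1.17. The difference between batches in one fit was 0.81 ± 0.33 (edgeR adjusted p = 0.382), which did not pass. Without libraries 3 the batch 1 change was 0.26 (edgeR adjusted p = 0.483).

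PLIN3, a perilipin that is also present in the cytosol and moves to new droplets, lies at chr19:4838341-4867694 (minus strand). It was the most abundant of the 10 per length and was called in 0 of 12 comparisons with WT by edgeR and 0 by DESeq2, with 5 at an unadjusted p under 0.05. Exons of PLIN3 overlap 502 bases of an antisense gene, and the counting did not use strand. In batch 2 HIF-2α libraries read 35579, 33675 and 33069 against 24363, 24951 and 24913 in WT, with no overlap but under 2-fold (log2 change 0.46 ± 0.05, edgeR adjusted p = 3.49e-10). Batch 1 gave 63537, 61519.5 and 67927 in HIF-2α against 33079, 37004 and 50192 in WT. These too did not overlap, and the log2 change was 0.68 ± 0.23 (edgeR adjusted p = 0.0473). The other changes from WT lay between -0.07 and 0.23 in batch 1 and between 0.11 and 0.21 in batch 2.

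PLIN4, a perilipin of adipocytes and muscle (chr19:4502192-4518486, minus strand), was close to the limit of detection. Its libraries read 6.61, 8.71 and 7.03 normalised counts in WT of batch 1 and 15.4, 12.9 and 19.0 in WT of batch 2, where 3 reads correspond to 2.10 to 4.74 and 2.43 to 3.57 normalised counts. All 12 changes from WT were positive, from 0.52 to 1.47 in batch 1 and from 0.20 to 0.89 in batch 2, and 0 of 12 passed by edgeR and 0 by DESeq2, with 1 at an unadjusted p under 0.05. The 8 changes in batch 1 share the WT libraries. The highest value in any library was 36.2, and the depth could not show whether PLIN4 differed between lines.

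HILPDA, a small hypoxia-inducible protein that inhibits PNPLA2, lies at chr7:128455849-128458418 (plus strand), and genes on the same strand share 175 and 186 bases of its exons. In batch 2, its WT libraries read 1617, 1587 and 1691 and HIF-2α read 4736, 4079 and 3673. HIF-1α/2α read 5300.3, 5364 and 5419.5, above all libraries of the other lines. HILPDA was 2.55-fold higher in HIF-2α (log2 change 1.35 ± 0.07, edgeR adjusted p = 3.35e-20) and 3.29-fold higher in HIF-1α/2α (log2 change 1.72 ± 0.07, edgeR adjusted p = 5.97e-24). The lines with the HIF-1α IDR also lay above WT without overlap, at 2796, 2706 and 2550.0 in HIF-1α and 2641, 2415 and 2364 in HIF-2α/1α. Both changes were under 2-fold, with log2 values of 0.72 ± 0.07 (edgeR adjusted p = 4.84e-11) and 0.60 ± 0.07 (edgeR adjusted p = 7.17e-09).

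In batch 1, HILPDA read 2003, 1575 and 935 in WT, 3137, 2425 and 1156 in HIF-1α and 3777, 2969 and 1767 in HIF-2α. Within each line the third library was the lowest, and the lines overlapped across numbers. HILPDA was called in 0 of 8 lines against WT by edgeR and 0 by DESeq2, with 2 at an unadjusted p under 0.05. In HIF-2α it did not pass (log2 change 0.92 ± 0.44, edgeR adjusted p = 0.185). Without libraries 3 that change was 0.94 with an edgeR adjusted p of 0.00307, still under 2-fold. The lowest line was HIF-1α R30E at 757, 980.3 and 518. Against this mutant the HIF-1α libraries were all higher (log2 difference 1.57 ± 0.45, edgeR adjusted p = 0.0449), and the difference passed without the libraries numbered 3 (1.68, edgeR adjusted p = 6.38e-06). Leaving out those libraries also brought past the limits the difference of HIF-1α R30E from WT (-1.01, edgeR adjusted p = 0.00375) and that of HIF-1α from HIF-1αDM (1.04, edgeR adjusted p = 0.00356). HIF-2α exceeded HIF-2α R27E, which read 1648, 1443 and 523 (log2 difference 1.24 ± 0.44, edgeR adjusted p = 0.0894). With the replicate number as a block, which pairs these samples, that difference passed at 1.31 (edgeR adjusted p = 1.13e-06), and it passed without libraries 3 at 1.13 (edgeR adjusted p = 0.000601).

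G0S2, a small inhibitor of PNPLA2 (chr1:209675412-209676390, plus strand), was called in 1 of 12 comparisons with WT. HIF-2α KIN libraries read 3268, 2931 and 3465 against 5882, 7109 and 7657 in WT, with no overlap, and the gene was 2.14-fold lower (log2 change -1.10 ± 0.27, edgeR adjusted p = 0.00665). The call was lost in 5 of 6 fits that left out a library of these groups, with adjusted p up to 0.0322, and without libraries 3 (edgeR adjusted p = 0.0142), while the log2 change stayed between -1.20 and -1.01 over the 6 fits. In batch 2 the changes were small, from -0.21 in HIF-2α to 0.22 in HIF-1α. HIF-2α libraries read 4588, 4375 and 4446, all below the WT libraries of 5335, 5194 and 4977 (edgeR adjusted p = 0.00625). HIF-1α/2α libraries read 5654, 5865 and 6421, all above them (edgeR adjusted p = 0.00579).

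PNPLA2, the lipase that makes the first cut in stored triglyceride (chr11:818914-825573, plus strand), was called in 0 of 12 comparisons with WT by edgeR and 0 by DESeq2, with 1 at an unadjusted p under 0.05. Its exons share 401 bases with an antisense gene. The batch 2 WT libraries read 7909, 7304 and 8035 and HIF-1α/2α read 5798, 6215 and 7103, lower in every library and by less than 2-fold (log2 change -0.28 ± 0.06, edgeR adjusted p = 0.00035). HIF-2α at 7931, 7831 and 6979 overlapped with WT, and its log2 change had an interval of -0.16 to 0.10. In batch 1 the WT libraries read 7467, 9170.0 and 12661, with library 3 highest in every line, and the changes ran from -0.24 to 0.40.

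**Figure D2:**
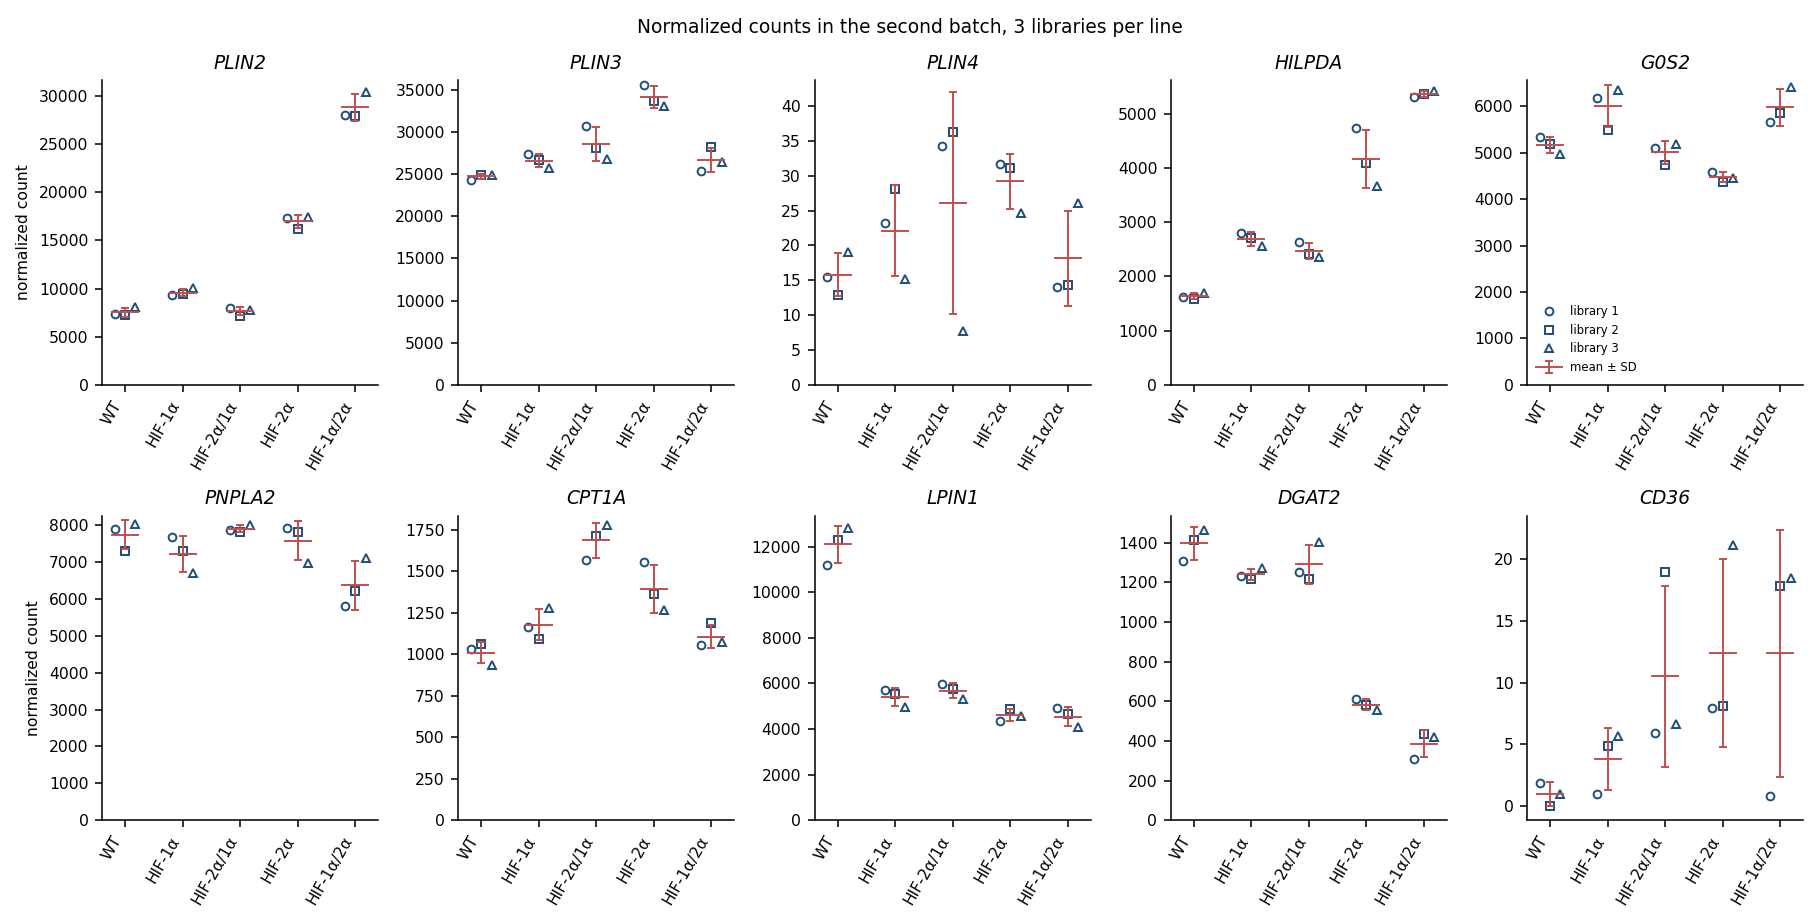
Normalised counts of the 10 genes in the 15 libraries of batch 2, by line; open symbols are libraries 1 to 3 and red bars the mean ± SD, each panel with its own linear axis. PLIN2 and HILPDA stand highest and DGAT2 lowest in HIF-2α and HIF-1α/2α, and LPIN1 lies between 4086 and 5978 in the 4 L30 lines, below the 11217 to 12802 of WT.

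LPIN1, a phosphatidate phosphatase that makes the diacylglycerol used for triglyceride and also acts as a coactivator of transcription, lies at chr2:11677595-11827409 (plus strand). In batch 2, WT libraries read 11217, 12304 and 12802. HIF-1α libraries read 5712, 5528 and 4959.7 and HIF-2α/1α libraries 5978, 5772 and 5319. HIF-2α libraries read 4346, 4883 and 4593 and HIF-1α/2α libraries 4908, 4654 and 4086. No library of the 4 lines reached the lowest WT library. LPIN1 was 2.24-fold lower than WT in HIF-1α (log2 change -1.16 ± 0.07, edgeR adjusted p = 9.07e-19) and 2.13-fold lower in HIF-2α/1α (log2 change -1.09 ± 0.07, edgeR adjusted p = 1.21e-17). In HIF-2α it was 2.63-fold lower (log2 change -1.39 ± 0.07, edgeR adjusted p = 8.11e-22) and in HIF-1α/2α 2.66-fold lower (log2 change -1.41 ± 0.07, edgeR adjusted p = 4.38e-22).

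In batch 1 all 8 lines had a lower mean LPIN1 than WT. WT libraries read 7172, 8299 and 5699, HIF-2α 3382, 2315 and 2441 and HIF-1α 4385, 3512 and 2312. HIF-2α and HIF-1α lay below WT without overlap, and so did HIF-1αDM, HIF-2αDM and HIF-1β KIN. The HIF-2α change was called (log2 change -1.38 ± 0.28, edgeR adjusted p = 0.000834). The HIF-1α change exceeded 2-fold but missed the adjusted p (log2 change -1.05 ± 0.27, edgeR adjusted p = 0.0135), and it passed with the replicate number as a block, which pairs these samples (-1.05, edgeR adjusted p = 0.000353). The mutants had log2 changes nearer to 0, of -0.33 ± 0.27 in HIF-2α R27E, -0.52 ± 0.27 in HIF-2αDM, -0.74 ± 0.27 in HIF-1α R30E and -0.68 ± 0.27 in HIF-1αDM, none of which passed. Set directly against HIF-2α R27E, HIF-2α was lower but missed the adjusted p (log2 difference -1.05 ± 0.27, edgeR adjusted p = 0.0132). That difference passed with the block (-1.03, edgeR adjusted p = 0.000443) and without libraries 3 (-1.13, edgeR adjusted p = 0.00804). HIF-2α also lay below HIF-2αDM without passing (log2 difference -0.85 ± 0.27, edgeR adjusted p = 0.0482). HIF-1α was not shown to differ from HIF-1α R30E (log2 difference -0.31 ± 0.27, edgeR adjusted p = 0.719) or HIF-1αDM (log2 difference -0.37 ± 0.27, edgeR adjusted p = 0.672), and its libraries overlapped with both.

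DGAT2, which adds the last fatty acid to make triglyceride (chr11:75759512-75801535, plus strand), was called in 5 of 12 comparisons with WT, as many as LPIN1. Genes on the other strand share 117 and 423 bases of its exons. In batch 2, WT libraries read 1308, 1417 and 1467. HIF-2α libraries read 613, 581 and 556 and HIF-1α/2α libraries 307, 434 and 418. All 6 lay far below WT, and HIF-1α/2α lay below HIF-2α. DGAT2 was 2.39-fold lower in HIF-2α (log2 change -1.26 ± 0.10, edgeR adjusted p = 1.07e-14) and 3.64-fold lower in HIF-1α/2α (log2 change -1.86 ± 0.10, edgeR adjusted p = 5.29e-20). With the HIF-1α IDR the libraries read 1234, 1217 and 1272 in HIF-1α and 1254, 1216 and 1404 in HIF-2α/1α. The first lay just under the lowest WT library and the second overlapped with WT, with log2 intervals of -0.36 to 0.02 and -0.30 to 0.08.

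In batch 1, DGAT2 read 1406, 1275 and 1130.0 in WT and 459.6, 368 and 394 in HIF-2α. It read 354, 400.1 and 291 in HIF-1β KIN and 243, 257 and 178 in HIF-2α KIN. Neither the HIF-2α line nor either clone overlapped with WT. DGAT2 was 3.12-fold lower in HIF-2α (log2 change -1.64 ± 0.16, edgeR adjusted p = 2.71e-08), 3.65-fold lower in HIF-1β KIN (log2 change -1.87 ± 0.16, edgeR adjusted p = 9.98e-09) and 5.63-fold lower in HIF-2α KIN (log2 change -2.49 ± 0.17, edgeR adjusted p = 4.96e-11). HIF-1α read 831, 739 and 831, below WT without overlap and by less than 2-fold (log2 change -0.67 ± 0.16, edgeR adjusted p = 0.00573).

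DGAT2 was also read in the lines whose added HIF-2α lacks DNA binding or dimerization. The form of HIF-2α and the line that carries it cannot be told apart here. HIF-2α R27E read 1137, 1255 and 1034 and HIF-2αDM 1419, 1528 and 1249, each overlapping with WT. HIF-2α was 2.81-fold lower than HIF-2α R27E (log2 difference -1.49 ± 0.16, edgeR adjusted p = 2.04e-07) and 3.43-fold lower than HIF-2αDM (log2 difference -1.78 ± 0.16, edgeR adjusted p = 8.52e-09). EPAS1 read 56676 ± 10267 normalised counts in HIF-2α R27E, 48666 ± 5292 in HIF-2αDM and 44694 ± 6296 in HIF-2α (SD, n = 3). The part of these amounts in the differences was not tested. HIF-1α lay below HIF-1α R30E, under the 2-fold limit (log2 difference -0.79 ± 0.16, edgeR adjusted p = 0.00195).

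**Figure D3:**
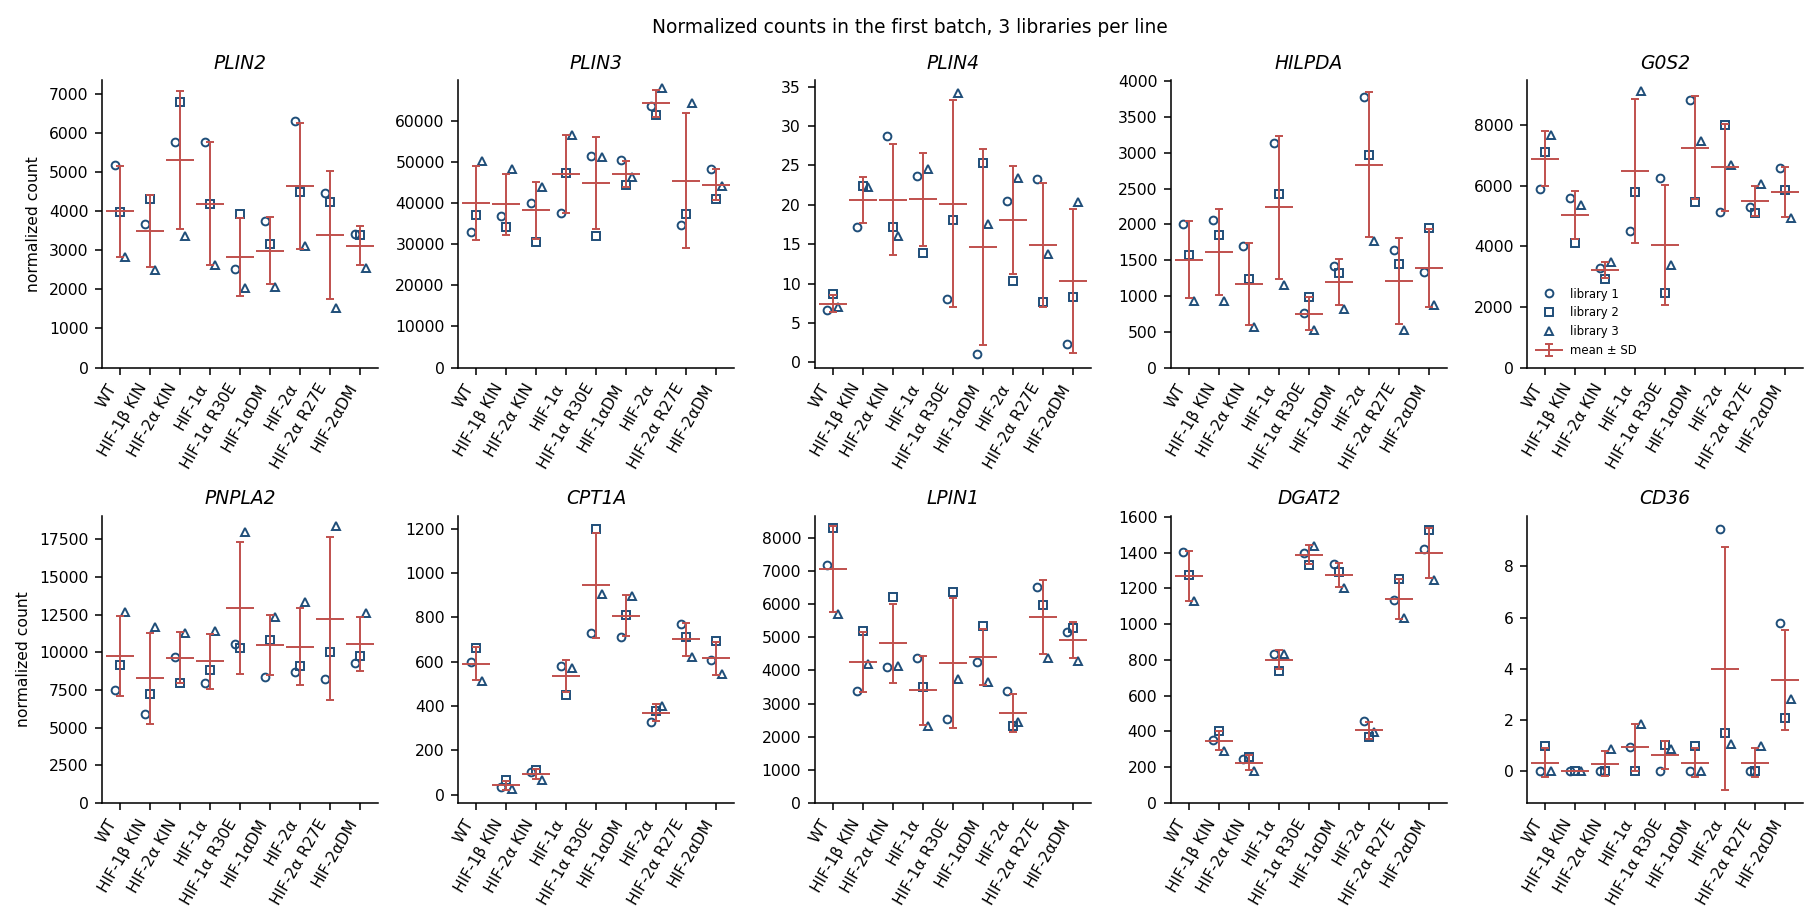
Normalised counts of the 10 genes in the 27 libraries of batch 1, by line; open symbols are libraries 1 to 3 and red bars the mean ± SD, each panel with its own linear axis. CPT1A lies between 26.5 and 113 in the knock-in clones and at 327 or above elsewhere, and the triangles of library 3 are the lowest points for PLIN2 and HILPDA in every line.

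CPT1A, the outer-membrane enzyme that controls entry of long-chain fatty acids into mitochondria, lies at chr11:68754620-68844410 (minus strand). The 250 bases before a RefSeq start site of the gene (GRCh38.p14, chr11:68844278-68844527, minus strand) are shown beside those of PLIN2. CPT1A had the largest fold change that was called among the 10 genes. Part of the window lies inside the annotated gene, and other start sites of CPT1A were not covered. The window holds no ACGTG or GCGTG on either strand, so no letter is in capitals, which says only that these letters are not in it.

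CPT1A: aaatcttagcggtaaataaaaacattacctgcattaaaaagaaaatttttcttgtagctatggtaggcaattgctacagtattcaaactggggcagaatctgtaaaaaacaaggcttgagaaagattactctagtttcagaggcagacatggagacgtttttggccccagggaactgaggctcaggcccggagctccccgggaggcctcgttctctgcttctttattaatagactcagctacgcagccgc

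CPT1A read 600.4, 659.8 and 512 in WT of batch 1 but 33.4, 63.8 and 26.5 in HIF-1β KIN and 102, 113 and 67.6 in HIF-2α KIN. The highest clone library was far below the lowest WT library. CPT1A was 14.4-fold lower in HIF-1β KIN (log2 change -3.85 ± 0.27, edgeR adjusted p = 1.87e-10) and 6.32-fold lower in HIF-2α KIN (log2 change -2.66 ± 0.25, edgeR adjusted p = 3.55e-08). Each of these is 1 clone, so the tag and the clone cannot be told apart. In HIF-2α KIN EPAS1 was also lower (above), while ARNT, the gene of HIF-1β, read 1606 ± 298 in HIF-1β KIN against 1622 ± 144 in WT (SD, n = 3), and the part of either in the result was not tested.

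CPT1A differed less from WT in the L30 lines, and in both directions. In batch 1 HIF-2α read 327, 377 and 402, all below WT (log2 change -0.68 ± 0.24, edgeR adjusted p = 0.0553). Its mutants read 771, 709.8 and 623 in HIF-2α R27E and 607, 692 and 545 in HIF-2αDM, all above HIF-2α. The difference from R27E was -0.93 ± 0.24 (edgeR adjusted p = 0.0111) and passed without libraries 3 (-1.07, edgeR adjusted p = 0.00554). In batch 2 the direction was the other: WT read 1030.4, 1058 and 936, HIF-2α 1553, 1364 and 1269 and HIF-2α/1α 1567, 1711 and 1775. Both lines lay above WT in every library, by less than 2-fold (log2 change 0.47 ± 0.09, edgeR adjusted p = 1.72e-05 in HIF-2α, and log2 change 0.74 ± 0.09, edgeR adjusted p = 2.98e-09 in HIF-2α/1α). The change in HIF-2α differed between batches by 1.00 ± 0.20 on the log2 scale (edgeR adjusted p = 0.0612), which did not pass, although DESeq2 called it (1.08, adjusted p = 3.86e-05).

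CD36, the surface receptor that takes up long-chain fatty acids (chr7:80369575-80679277, plus strand), was at the floor in WT and is given in reads. WT of batch 2 held 2, 0 and 1 reads and HIF-2α 8, 7 and 18. HIF-1α/2α held 1, 15 and 17 reads, HIF-2α/1α 5, 22 and 6, and HIF-1α 1, 5 and 6. Libraries of HIF-2α and HIF-2α/1α all lay above WT, and those of HIF-1α/2α and HIF-1α overlapped with WT through their first library. The ratio of depth-scaled sums to WT was 13.2 in HIF-2α (95% exact counting interval 4.14 to 67.3), 12.1 in HIF-1α/2α (3.80 to 61.8) and 12.4 in HIF-2α/1α (3.89 to 63.1). In HIF-1α it was 4.19 (1.13 to 23.1). These intervals cover counting error only. CD36 was called in HIF-2α (edgeR adjusted p = 0.00553) and HIF-1α/2α (edgeR adjusted p = 0.00582) and not in HIF-2α/1α (edgeR adjusted p = 0.0138), whose read total was the same. The calls were lost in 3 of 6 and 4 of 6 fits that left out a library of the groups compared, and both were lost without the libraries numbered 3 (edgeR adjusted p = 0.0802 and 0.0629). In batch 1 the WT libraries held 1 read in all, and no line held more than 11.

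Counting over the genes, 12 of 40 gene and line pairs were called against WT in batch 2 and 7 of 80 in batch 1. In batch 2, 5 of 10 were called in HIF-2α, 3 higher and 2 lower, where 7.58% of all genes tested were called, and 5 of 10 in HIF-1α/2α, again 3 higher and 2 lower, against 7.78%. HIF-1α and HIF-2α/1α each had 1 of 10, LPIN1, against 4.39% and 3.49% of all genes. In batch 1 HIF-2α had 2 lower genes, LPIN1 and DGAT2, against 5.72% of all genes. HIF-2α KIN had 3 lower, G0S2, CPT1A and DGAT2, against 4.14%, and HIF-1β KIN had 2 lower, CPT1A and DGAT2, against 1.38%. No gene of the 10 was called higher in batch 1. The median log2 change over the 10 genes in HIF-2α was 0.47 in batch 2 and 0.15 in batch 1, where the medians over all genes were 0.070 and -0.088.

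The remaining lines of batch 1 had 0 of 10 called by edgeR. For HIF-1α, 3.79% of all genes were called, 3 of the 10 reached an unadjusted p under 0.05, and DESeq2 called 1, LPIN1. For HIF-1α R30E the background was 2.61%, with 4 genes under 0.05 and 0 called by DESeq2. For HIF-1αDM it was 0.457%, with 1 gene under 0.05 and 0 by DESeq2. For HIF-2α R27E it was 0.496%, with 0 genes under 0.05 and 0 by DESeq2, and for HIF-2αDM 0.474%, with 1 gene under 0.05 and 0 by DESeq2. Mutants of HIF-2α thus had few calls over all genes as well as among these 10.

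The direct comparisons set each functional line against its DNA-binding or dimerization mutant, which is another line, so mutation and line cannot be told apart. DGAT2 was the 1 gene of 10 called between HIF-2α and HIF-2α R27E, where 3.63% of all genes were called, and between HIF-2α and HIF-2αDM, where 3.96% were. With the replicate block the first count was 3, adding HILPDA and LPIN1, and without libraries 3 it was 4, adding CPT1A, HILPDA and LPIN1. Against HIF-2αDM it was 2 without libraries 3, adding HILPDA (1.05, edgeR adjusted p = 0.00135). Between HIF-1α and HIF-1α R30E edgeR called 0 of 10 against 1.75% of all genes, with 4 genes at an unadjusted p under 0.05 and 1, HILPDA, called by DESeq2. Between HIF-1α and HIF-1αDM it called 0 against 1.37%, with 3 genes under 0.05 and 0 by DESeq2.

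HIF-2α and HIF-1α were compared directly in each batch. In batch 2 DGAT2 was the 1 gene called, lower with HIF-2α (log2 difference -1.09 ± 0.10, edgeR adjusted p = 2.19e-12), where 3.78% of all genes were called. PLIN2 was higher with HIF-2α in every library but under 2-fold (log2 difference 0.83 ± 0.06, edgeR adjusted p = 2.11e-16), and so was HILPDA (log2 difference 0.63 ± 0.07, edgeR adjusted p = 7.84e-10). In batch 1 edgeR called 0 of 10 against 2.4%, with 2 at an unadjusted p under 0.05 and 0 called by DESeq2. DGAT2 came nearest there, just short of 2-fold (log2 difference -0.98 ± 0.16, edgeR adjusted p = 0.000159).

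The 4 L30 lines of batch 2 cross the IDR with the structured part, which allows each to be compared over both forms of the other. Each combination is a line of its own, so domain and line cannot be told apart. The SE covers only the spread between samples of a line. The IDR effect, the mean log2 level with the HIF-2α IDR minus that with the HIF-1α IDR, was called for 2 of 10 genes against 4.41% of all genes. PLIN2 was higher with the HIF-2α IDR (log2 difference 1.37 ± 0.04, edgeR adjusted p = 4.98e-30) and DGAT2 lower (log2 difference -1.42 ± 0.07, edgeR adjusted p = 2.71e-21). HILPDA was also higher, at 0.88 ± 0.05 under the 2-fold limit (edgeR adjusted p = 3.98e-19). LPIN1, which fell in all 4 lines, had an IDR effect of -0.28 ± 0.05 (edgeR adjusted p = 5.43e-06). CPT1A, at -0.18 ± 0.06, and G0S2, at -0.08 ± 0.04, had intervals of -0.30 to -0.06 and -0.17 to 0.00.

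The structured-domain effect, HIF-2α minus HIF-1α in the same sense, was called for 0 of 10 genes by edgeR and 0 by DESeq2, against 1.04% of all genes, although 7 of 10 had an unadjusted p under 0.05. Among those 7 the largest was PLIN2, lower with the structured part of HIF-2α (log2 difference -0.54 ± 0.04, edgeR adjusted p = 7.52e-15), followed by CPT1A, higher with it (log2 difference 0.43 ± 0.06, edgeR adjusted p = 5.27e-07). The interaction between IDR and structured part was called for 0 of 10 by edgeR and 0 by DESeq2, against 1.18%, with 4 genes at an unadjusted p under 0.05. The amounts of the added transcripts differed between these lines: EPAS1 read 42541 ± 319.8 in HIF-2α and 51430.1 ± 3088 in HIF-1α/2α, and HIF1A read 13161 ± 494 in HIF-1α and 9625 ± 75.7 in HIF-2α/1α (SD, n = 3). Reads of a chimera fall on both genes. The part of these amounts in the differences was not tested.

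**Figure D4:**
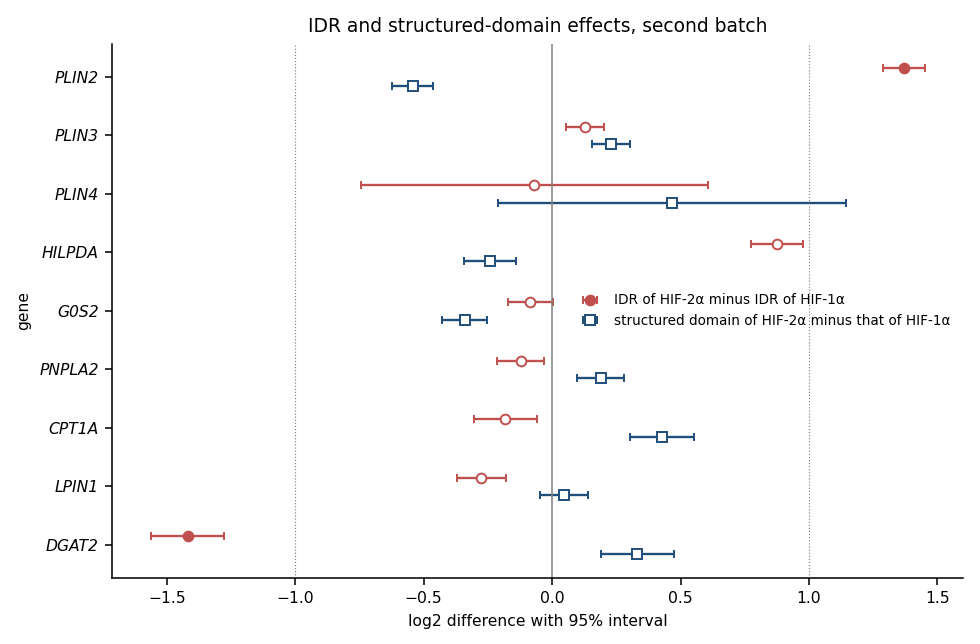
Log2 differences with 95% intervals for 9 genes in batch 2; circles are the IDR effect and squares the structured-domain effect, filled where called, with dotted lines at 2-fold. PLIN2 at 1.37 and DGAT2 at -1.42 lie outside the dotted lines for the IDR, and every square lies inside them.

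The HIF-1α and HIF-2α lines were made into libraries in both batches, and the change from WT was compared between batches in a single fit. For HIF-2α edgeR called 0 of 10, where 0% of all genes were called, with 2 at an unadjusted p under 0.05, PLIN2 and CPT1A, and 1, CPT1A, called by DESeq2. For HIF-1α it called 0 of 10 against 0.00374%, with 0 under 0.05 and 0 by DESeq2. LPIN1 and DGAT2 were called in HIF-2α in both batches, with log2 changes of -1.38 and -1.39 for LPIN1 and -1.64 and -1.26 for DGAT2. The HIF1A level in the HIF-1α line was 3038 ± 233 in batch 1 and 13161 ± 494 in batch 2, and its part was not tested. The spread between libraries was wider in batch 1: the SE of the PLIN2 change in HIF-2α was 0.36 there and 0.056 in batch 2.

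**Figure D5:**
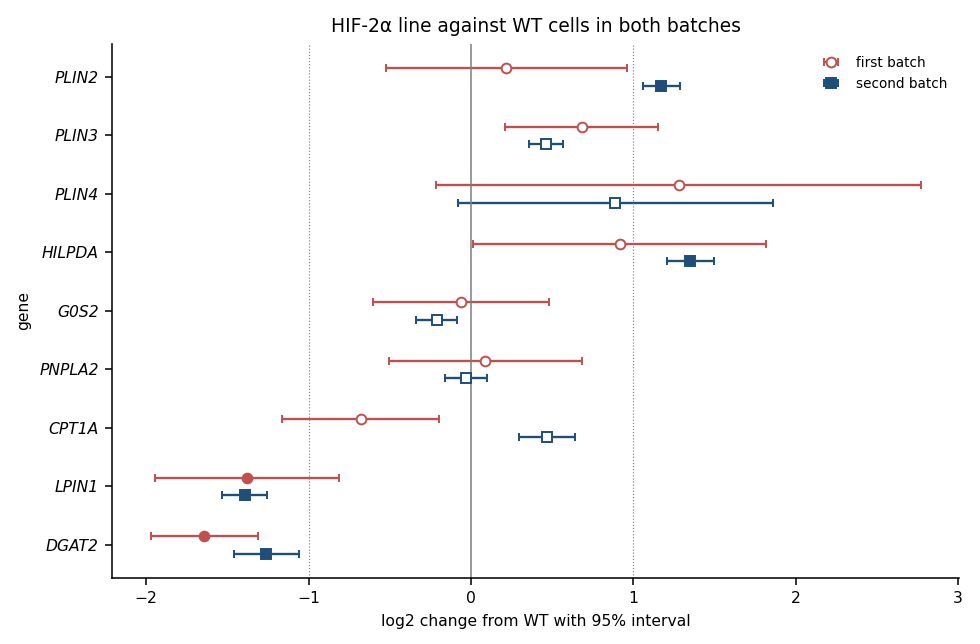
Log2 change from WT with 95% intervals for 9 genes in the HIF-2α line, batch 1 as circles and batch 2 as squares, filled where called, with dotted lines at 2-fold. LPIN1 and DGAT2 are filled in both batches, PLIN2 and HILPDA only in batch 2, and the CPT1A intervals lie on opposite sides of 0.

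Beyond the 10 genes, 78 other genes of lipid storage and fatty acid use were counted in 6 lists, 63 of them tested in batch 1 and 70 in batch 2. In HIF-2α of batch 2 edgeR called 5 of 70, all lower, where 7.58% of all genes were called, and in HIF-1α/2α 7 of 70, of which 1 rose and 6 fell, against 7.78%, so both shares were near the background. The median log2 changes over the tested genes of the lists were 0.021 and 0.0024, where the medians over all genes were 0.070 and 0.077. In HIF-1α 1 of 70 rose against 4.39% of all genes, and in HIF-2α/1α edgeR called 0 against 3.49% and DESeq2 0, with 27 at an unadjusted p under 0.05. Of the 18 genes of mitochondrial fatty acid oxidation tested, 0 were called by edgeR and 0 by DESeq2 in each of these 4 lines, with 8 to 10 at an unadjusted p under 0.05. The strongest falls were in ACSL5, an acyl-CoA synthetase that activates fatty acids, which read 393, 478 and 496 in WT and 69.4, 77.4 and 49.3 in HIF-2α (log2 change -2.80 ± 0.17, edgeR adjusted p = 1.02e-18). PNPLA3, a lipase relative of PNPLA2 found on droplets, read 322, 346 and 324 in WT and 63.4, 80.8 and 62.2 in HIF-2α (log2 change -2.26 ± 0.17, edgeR adjusted p = 6.98e-15). Both genes also fell in HIF-1α/2α, by 2.39 and 2.20 on the log2 scale, and both had an IDR effect, -2.69 ± 0.11 for ACSL5 and -2.15 ± 0.12 for PNPLA3 (edgeR adjusted p = 8.73e-24 and 3.65e-19).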

How the data were processed

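Poly(A) RNA-seq libraries of 42 samples were analysed, 27 in batch 1 and 15 in batch 2. The deposited files hold raw gene counts, which the authors made by aligning reads to hg38 with STAR and counting uniquely mapped read pairs on GENCODE genes with HTSeq without strand. The submitters' processing notes name STAR 2.7, HTSeq 0.11.1, SAMtools 1.9, deepTools 2.4.1, FastQC and DESeq2, and the methods of the study give other STAR and HTSeq versions. Groups follow the labels. Samples titled HIF-2αDM carry a HIF-1α genotype label and were taken by title.

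From the counts, genes with a mean normalised count of at least 0.5 in the batch were kept, scaled by TMM within the batch, and tested with edgeR 4.0.16 (glmQLFit and glmQLFTest, limma 3.58.1, R 4.3.3) over all groups of the batch. Normalised counts are counts scaled to the mean TMM library size of the batch. SE is the log2 change over the square root of F. Levels per length used exon lengths of GENCODE release 44, gene positions are from the same annotation, and other genes' exons overlap PLIN3, PLIN4, HILPDA, PNPLA2, LPIN1 and DGAT2. Promoter windows came from RefSeq. Alternatives were RLE factors, DESeq2 1.42.0, no filter, only the groups compared, a replicate block, leaving out each library, leaving out libraries 3, and no minimum fold. In simulated data for HIF-2α against WT of batch 1 (23024 genes), the test recovered 90% of genes changed by 1.5 (log2). It recovered 100% of those changed by 3, and 100% of both in batch 2 (28109 genes). These shares do not give the power for single genes with a wide spread in batch 1. Examples are PLIN2 and HILPDA, whose SEs in HIF-2α against WT were 0.36 and 0.44 there. No 2 libraries were identical.

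The labels number samples 1 to 3. Deviations from group means of same-numbered samples correlated at 0.244 on average in batch 1, against -0.121 for other numbers, and at 0.00499 in batch 2. Numbers were taken to pair samples where all 3 correlations exceeded 0.1, which held against WT for both knock-in clones, HIF-1α, HIF-1αDM and HIF-2α R27E and for HIF-2α against HIF-2α R27E and HIF-1α in batch 1. The members and lists were chosen with earlier results of these data known. All 10 members are named, with HIF1A, EPAS1 and ARNT as label checks. From the wider lists, at most 2 called genes per direction and comparison of batch 2 with a mean count of at least 50 are named, and for PLIN2, HILPDA and CPT1A the 3 genes most like each, of which 1 is not reported here.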

Additional observations from a re-analysis of the deposited data

Results flagged for a closer look

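For PLIN2 and DGAT2 the difference between lines with either structured part was not the same with each IDR. For PLIN2 the change from the structured part of HIF-1α to that of HIF-2α differed between the HIF-2α IDR and the HIF-1α IDR, the first minus the second, by -0.44 on the log2 scale (edgeR adjusted p = 9.64e-05). With the HIF-2α IDR its means were 16995 in HIF-2α and 28811 in HIF-1α/2α, and with the HIF-1α IDR they were 7655 in HIF-2α/1α and 9582 in HIF-1α. For DGAT2 the same difference was 0.55 (edgeR adjusted p = 0.007), with means of 583 in HIF-2α and 386 in HIF-1α/2α against 1291 in HIF-2α/1α and 1241 in HIF-1α. Both interactions were under 2-fold and so were not called. Each combination is a line of its own, so domain, line and amount of added transcript cannot be told apart.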

How the results depend on the processing

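No called change reversed under any alternative. With RLE factors all 230 values kept their call. With no minimum fold, more of the 10 genes were called: 8 in HIF-2α against WT, 7 in HIF-1α/2α, 4 in HIF-1α and 4 in HIF-2α/1α of batch 2, 1 in HIF-1α of batch 1, 1 for HIF-1α against HIF-1α R30E, 1 and 6 for HIF-2α against HIF-1α in batches 1 and 2, 5 for the IDR effect, 7 for the structured-domain effect and 2 for the interaction. Without libraries 3 the counts were 1 in HIF-1α R30E against WT, 1 for HIF-1α against HIF-1α R30E, 1 for HIF-1α against HIF-1αDM, 4 for HIF-2α against HIF-2α R27E and 2 for HIF-2α against HIF-2αDM. With DESeq2 they were 1 for HIF-1α against HIF-1α R30E, 1 in HIF-1α of batch 1 and 1 for the batch difference of HIF-2α. With no filter they were 1, 1 and 1 for the same comparisons, 3 for HIF-2α against HIF-2α R27E, 2 for HIF-2α against HIF-2αDM and 2 in HIF-2α/1α. With only the groups compared, 1 was called for HIF-1α against HIF-1α R30E, and the CD36 call in HIF-1α/2α was lost (edgeR adjusted p = 0.0101). The cause was not tested.

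Under the replicate block the counts of called genes were 1 in HIF-1α of batch 1, 1 for HIF-1α against HIF-1α R30E (HILPDA, 1.49, edgeR adjusted p = 2.51e-07), 3 for HIF-2α against HIF-2α R27E and 2 for HIF-2α against HIF-2αDM (HILPDA added, 1.01, edgeR adjusted p = 5.71e-05). In the HIF-1α R30E and HIF-2αDM comparisons not all correlations of same-numbered samples exceeded 0.1, so the rule for pairing was not met. They were -0.1, 0.0994 and 0.404 for the first and 0.11, 0.0971 and 0.359 for the second. The block changed no other call.

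Leaving out 1 library moved the count between 0 and 1 in HIF-1α R30E (G0S2 without its replicate 1, LPIN1 without its replicate 2), in HIF-1α of batch 1 (LPIN1 without HIF-1α replicate 1) and in HIF-2α against HIF-1α of batch 1 (DGAT2 without HIF-1α replicate 2 or HIF-2α replicate 1), and between 1 and 2 in HIF-2α against HIF-2α R27E (LPIN1 without R27E replicate 3). Over 1440 such fits 12 calls were lost, all of G0S2 in HIF-2α KIN or of CD36. The depth limits PLIN4 and CD36, where 3 reads are worth up to 4.74 normalised counts.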

Other observations

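In the wider lists, the 5 genes that fell in HIF-2α of batch 2 were ACSL5, PNPLA3, GPAT3, ACSL3 and PPARGC1B, and the 6 in HIF-1α/2α were ACSL1, ACSL3, ACSL5, GPAT3, PNPLA3 and PPARA. Only ACSL5 and PNPLA3 came from the rule on named genes, and the other genes of this paragraph were chosen after their values were seen. ACSL1, ACSL3 and ACSL5 activate fatty acids with coenzyme A, GPAT3 starts triglyceride synthesis, and PPARA and PPARGC1B act in the transcription of oxidation genes. SLC27A3, of the fatty acid transport protein family, was the 1 gene higher in HIF-1α and in HIF-1α/2α. In batch 1 ACSL5 read 144, 113 and 141 normalised counts in WT and 4.74, 34.0 and 18.1 in HIF-2α. The HIF-2α libraries were all below those of WT. In the knock-in clones, where DGAT2 also fell, the lists gave other counts. In HIF-2α KIN edgeR called 5 of 63, where 4.14% of all genes were called, with GPAT3, PPARG and PPARGC1A higher and ACSL5 and FABP6 lower, and in HIF-1β KIN it called 0 and DESeq2 0, with 10 at an unadjusted p under 0.05 and 1.38% of all genes called.

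Over the 14 group means, each centred within its batch, the genes most like HILPDA were ADM (Pearson r = 0.971), VEGFA (0.954) and APCDD1L-DT (0.944) of 12461 genes ranked. The nearest to PLIN2 were HAUS5 (0.931), BCL2L2 (0.915) and ATG14 (0.9), and those near to CPT1A included XKR9 (0.961) and SLC37A1 (0.958). Of the 10 genes, PLIN4 and CD36 were left out of the correlations between members. Among the others the r furthest from 0 was -0.747, between PLIN2 and DGAT2. The highest positive values were 0.745 between CPT1A and DGAT2 and 0.728 between PLIN2 and HILPDA. LPIN1 had r of -0.677 with HILPDA and -0.664 with PLIN3. The part of the knock-in clones, where CPT1A and DGAT2 both fell, in the value of 0.745 was not tested. The groups of a batch share a library protocol, and these values are descriptions over 14 points.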
